A study of Mus musculus with 18 samples.

Results

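Gene expression in differentiating muscle cells of DSM-TKO (TKO) mice was compared between day 2 and day 1 of differentiation. The comparison rests on 2 libraries of each day, picked by their titles, or 4 of the 18 RNA-seq libraries of the series. Values were RPKM, the reads per kilobase of transcript scaled to the mapped reads of each library. Of the 20612 genes in the table, 11890 reached 1 RPKM in 2 or more of the 18 libraries and were compared, each with the most abundant row of its symbol. The cells came from 4-month-old mice of the strain label C57BL/6. The mice were semi-cloned, which means that haploid embryonic stem cells took the place of sperm in oocytes of B6D2F1 females. TKO mice carry 1 mutated allele each of Dmpk, Six5 and Mbnl1, and model the reduced dosage of these genes in myotonic dystrophy type 1 (DM1). DSMD-QKO (QKO) mice carry a mutation of Dmwd in addition, and wild-type (WT) mice carry none of the 4. All 3 genotypes, WT included, inherit the H19-DMR and IG-DMR deletions of their haploid parent cells. TKO pups were made from 2 haploid lines, and the labels do not say which line gave these cells. Muscle stem cells (MuSCs) were expanded in T cell conditional medium, where day 0 cells were taken. Day 1 and day 2 cells were taken 1 or 2 days after the change to differentiation medium, and their source names are "fiber" for day 1 and "fiber'" for day 2. Whether the libraries of a group came from separate cultures or animals is not stated. If they did not, the spread that the p-values rest on is technical.

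MuSCs that leave the cell cycle switch on the basic helix-loop-helix factors Myod1 and Myog, fuse into multinucleated myotubes and fill these with sarcomeres. Id proteins bind the partners of these factors and hold them off DNA, and the actin cytoskeleton is rebuilt while the cells elongate and fuse, in part through the factor SRF and its CArG elements. Cells short of amino acids, or with unfolded protein in the endoplasmic reticulum (ER), phosphorylate the initiation factor eIF2alpha. This integrated stress response lowers translation in general but raises that of ATF4, which turns on genes for amino acid supply, the factor Ddit3 (CHOP) and their shared target Trib3.

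The libraries had muscle cell profiles. Among the 4 libraries the lowest value was 991 RPKM for Myog, 2764 for Myh3 and 779.7 for Ckm. Fibroblast, endothelial, leukocyte, T cell, adipocyte, Schwann cell and erythroid markers were low. Pdgfra, Dcn, Pecam1, Cdh5, Ptprc, Cd3e and Sox10 were at most 0.447 RPKM, and Adipoq was listed at 0 throughout. Of the smooth muscle and pericyte list, 7 of 10 markers reached 1 RPKM, with Acta2 the main contributor, and the defining Myh11 was at most 0.0574. Of the targeted genes, Dmpk was at 219.5 and 205 RPKM on day 2, against 259 and 237 on day 1, and Six5 at 1.72 and 1.49, against 0.784 and 1.02. Mbnl1 was at 10.6 and 10.8 RPKM on day 2 and 9.84 and 8.64 on day 1, a whole-gene value that does not show the deleted exon. Dmwd, which is intact in TKO, was at 62.6 and 53.8 RPKM on day 2 and 66.5 and 63.6 on day 1. None of the 4 passed the test of day 2 against day 1, with adjusted p between 0.116 and 0.775 (limma). Replicates correlated at a Pearson r of 0.995 on each day and libraries of different days at 0.978 to 0.982, across genes, which are not independent replicates. The depth inferred from the steps of the values was 34.8 to 44.8 M reads a library. Of the recovered read numbers from 1 to 20, 61.9% were even, and whether read pairs were counted as 2 reads was not tested.

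Between day 2 and day 1, 787 of the 11890 genes (6.62%) passed an adjusted p of 0.05 in limma on log2(RPKM + 1). Of these, 562 rose (4.73%) and 225 fell (1.89%), and 205 (1.72%) changed by at least 2-fold, 123 up and 82 down. The step was small beside the one before it. The median absolute log2 change over all genes was 0.21 between day 2 and day 1 and 0.56 between day 1 and day 0, 2 steps that share the day 1 libraries. The libraries of the 2 days did not overlap, with day 2 higher, for 47.2% of all genes and, with day 2 lower, for 22.9%, and 64.1% of all genes had a log2 fold change above 0, with a median of 0.10. Which way most genes moved depended on the scaling. The median gene shifted by -0.11 under median-ratio scaling and under quantile normalization, which did not move all genes alike, and the calls were then 335 up and 362 down, and 286 up and 301 down. With the trend by transcript length removed they were 499 up and 538 down. The list medians below stand beside the 0.10 of all genes, and the list counts beside the 4.73% that rose and the 1.89% that fell. Leaving out 1 of the 4 libraries cost most calls: 66 genes rose and 46 fell without day 2 replicate 1, 45 and 31 without day 2 replicate 2, 55 and 40 without day 1 replicate 1, and 72 and 40 without day 1 replicate 2. Each of these fits has fewer samples, and 57 calls passed in all 4 of them. Below, a call is said to hold in as many of these 4 fits as it passed. Bulk RNA cannot tell fewer cells of a type from less RNA in each cell.

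Genes of the integrated stress response were among the largest rises. Of 28 genes on the list, 13 rose and 0 fell on day 2, and their median log2 change was 0.55, with 27 above 0. Trib3, the pseudokinase that binds ATF4 and AKT, was at 19.3 and 14.3 RPKM on day 2, against 1.14 and 1.16 on day 1. It rose by 3.03 ± 0.34 on the log2(RPKM + 1) scale (adjusted p = 0.000884), a scale that understates changes of low genes. The day 2 libraries lay far above those of day 1, and day 0 had been in between at 9.65 and 4.73 RPKM. Chac1, which breaks down glutathione, was at 23.2 and 20.03 RPKM on day 2, against 3.41 and 3.62 on day 1, and rose by 2.32 ± 0.25 (adjusted p = 0.000747). Ddit3, the stress factor CHOP, was at 25.1 and 20.3 RPKM, against 6.59 and 6.87, and rose by 1.61 ± 0.24 (adjusted p = 0.00266). Fgf21, a hormone that stressed muscle secretes, was at 119 and 106 RPKM on day 2, against 15.6 and 13.3 on day 1, and rose by 2.87 ± 0.42 (adjusted p = 0.00266). In contrast to Trib3 and Chac1, Fgf21 was lowest on day 0, at 2.64 and 2.62 RPKM. For these 4 genes and for Aldh18a1, an enzyme of proline synthesis (22.2 and 16.9 RPKM on day 2 and 7.44 and 8.53 on day 1), the call held in all 4 fits with a library left out.

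**Figure D1:**
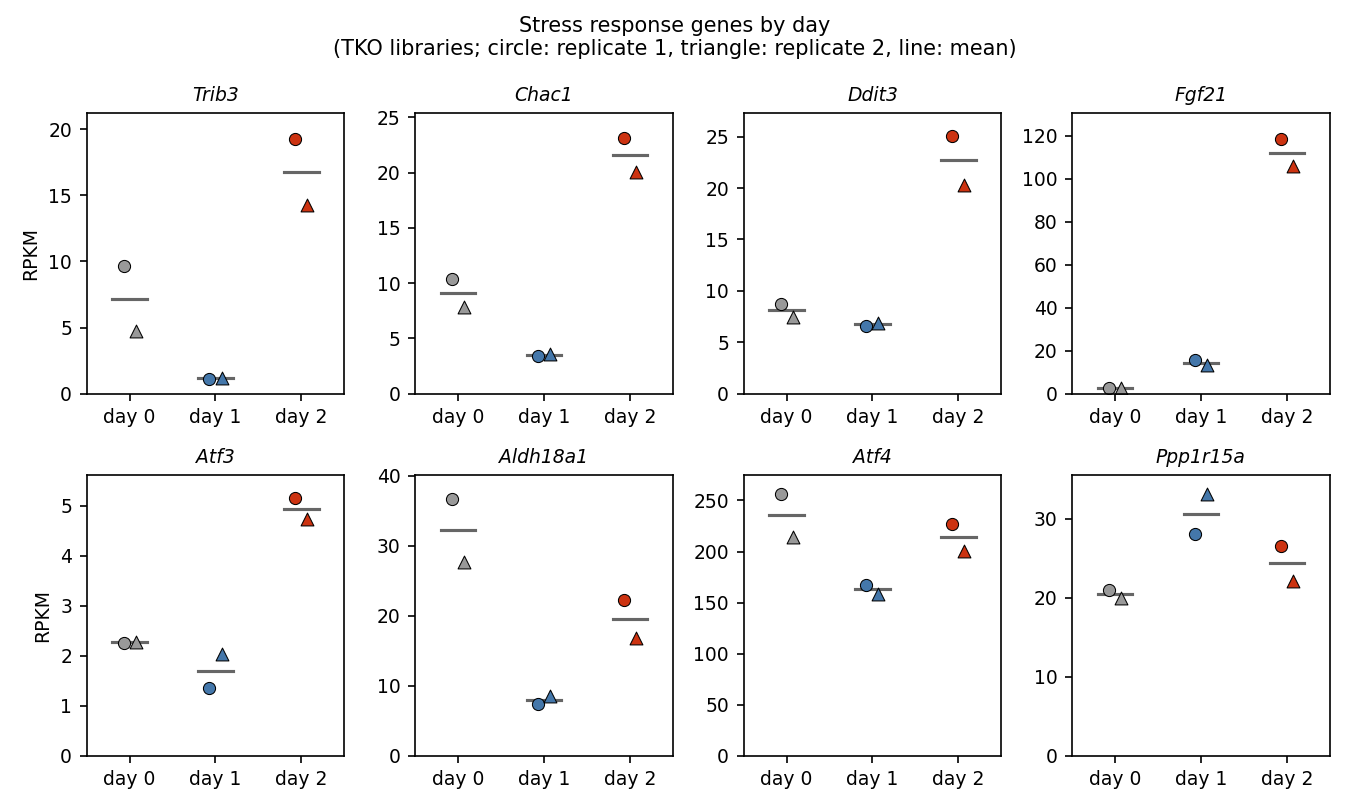
RPKM of 8 stress response genes in the 6 TKO libraries by day of differentiation (circle: replicate 1, triangle: replicate 2, line: mean of 2). Trib3, Chac1, Ddit3, Fgf21, Atf3 and Aldh18a1 were higher in both day 2 libraries than in both day 1 libraries, while Ppp1r15a was not.

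The other 8 genes of the list that rose were smaller or less stable. Vldlr, a lipoprotein receptor, was at 5.31 and 3.598 RPKM on day 2, against 0.504 and 0.593 on day 1 (1.799 ± 0.36, adjusted p = 0.0122). Atf3, a factor induced by ATF4, was at 5.15 and 4.74 RPKM, against 1.35 and 2.03 (1.15 ± 0.24, adjusted p = 0.0156). Sesn2 and Ddit4, inhibitors of the growth kinase mTORC1, rose by 1.26 ± 0.27 (adjusted p = 0.0171) and 1.02 ± 0.25 (adjusted p = 0.0267). The calls of these 4 genes and of the stress cofactor Nupr1 (1.22 ± 0.33) held in none of the 4 fits. Atf5, the folate enzyme Mthfd2 and the proline enzyme Pycr1 rose by 0.97 ± 0.19, 1.16 ± 0.24 and 0.92 ± 0.21, and each call held in 1 fit. Without 1 library, 5 to 8 genes of the list rose. Replicate 1 was the higher of the 2 day 2 libraries for each of the 13 genes except Pycr1. The mRNA of Atf4 itself, whose protein is set mostly by translation, was at 227 and 200.2 RPKM on day 2, against 167 and 159 on day 1 (0.39 ± 0.17, adjusted p = 0.215). Ppp1r15a, which directs the dephosphorylation of eIF2alpha and is a target of CHOP, was at 26.6 and 22.1 RPKM, against 28.1 and 33.1 (-0.32 ± 0.18, adjusted p = 0.318). It was the one gene of the list below 0. Gdf15, a stress hormone outside the list, was at 15.5 and 9.64 RPKM on day 2, against 2.78 and 3.42 on day 1. It rose by 1.695 ± 0.19 (adjusted p = 0.000884) and its call held in all 4 fits.

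ATF4 binds, with a C/EBP partner, composite sites that read TGATGNAA, where N is any base. In all 13 motifs were searched, 5 of them added after the values were seen. Among those 5 were TGATGNAA and its form TGATGCAA, and the other added ones are not shown. Promoter windows of 250 bases before to 50 after each start (RefSeq, GRCm38.p6) were searched on both strands, with this motif chosen after the values were seen. Windows were found for 9626 of the 11890 tested genes, and 2.59% of them held the motif, as did 4.51% of all 27025 genes with a promoter. On the stress response list it was in 11 of 25 matched genes (44.0%), and in 7 of the 13 that rose. The motif is shown in capitals for 6 of these 7, on the strand of the gene, with the match of Trib3 left out as it lies after the start. TTGCATCA is the motif on the other strand. A match says only that the letters are there. The list holds genes that ATF4 turns on, so its share above that of all genes is a description only.
Chac1 (chr2:119351009-119351096, + strand): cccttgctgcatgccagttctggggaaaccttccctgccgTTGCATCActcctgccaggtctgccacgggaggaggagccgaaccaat
Nupr1 (chr7:126625533-126625620, - strand): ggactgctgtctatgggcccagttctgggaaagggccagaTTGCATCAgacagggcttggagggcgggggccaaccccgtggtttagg
Atf3 (chr1:191183396-191183483, - strand): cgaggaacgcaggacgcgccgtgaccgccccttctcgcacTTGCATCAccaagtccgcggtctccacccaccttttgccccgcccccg
Vldlr (chr19:27216780-27216867, + strand): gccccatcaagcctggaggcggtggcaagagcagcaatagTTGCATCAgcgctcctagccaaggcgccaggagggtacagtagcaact
Fgf21 (chr7:45615582-45615669, - strand): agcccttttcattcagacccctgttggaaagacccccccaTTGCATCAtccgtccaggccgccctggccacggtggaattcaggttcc
Pycr1 (chr11:120643804-120643891, - strand): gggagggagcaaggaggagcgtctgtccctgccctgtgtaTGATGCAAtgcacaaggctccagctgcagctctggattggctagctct
In all 6 the form was TGATGCAA, found in 0.696% of the tested genes. Among the genes that rose, 25 of 454 matched (5.51%) held TGATGNAA.

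Genes of transport into the ER and of the early secretory pathway also rose, with smaller changes. On a list of 67 such genes, drawn up after their values were seen, 26 rose and 0 fell, and the median log2 change was 0.52, with 58 above 0. Srpr, the receptor that docks ribosomes carrying secretory proteins at the ER, was at 126 and 112 RPKM on day 2, against 47.8 and 46.2 on day 1. It rose by 1.32 ± 0.19 (adjusted p = 0.00243), and its call held in all 4 fits. Its partner Srprb was at 47.7 and 39.4 RPKM, against 23.6 and 24.01 (0.84 ± 0.14, adjusted p = 0.00479), a call that held in 2. Ostc, of the oligosaccharyltransferase that glycosylates proteins, was at 146 and 128 RPKM on day 2, against 66.02 and 59.9 on day 1 (1.11 ± 0.20, adjusted p = 0.00679). Dnajb9, a co-chaperone of the ER, was at 88.4 and 82.1 RPKM, against 31.5 and 28.8 (1.47 ± 0.31, adjusted p = 0.0146). The translocon subunit Sec61g and the proline isomerase Fkbp11 rose by 1.3 ± 0.33 and 1.69 ± 0.38, and the calls of these 2 genes, Ostc and Dnajb9 held in none of the 4 fits. The chief folding chaperones did not pass. Hspa5 (BiP) was at 455 and 442 RPKM on day 2 and 419 and 432 on day 1 (0.08 ± 0.20, adjusted p = 0.88), and Calr was at 365 and 337 RPKM on day 2 and 308 and 324 on day 1 (0.15 ± 0.15, adjusted p = 0.634). Hsp90b1 was lower in both day 2 libraries, at 262 and 258 RPKM on day 2 and 278 and 299 on day 1 (-0.15 ± 0.15, adjusted p = 0.633). The stress factor Xbp1 was at 0.23 ± 0.14 (adjusted p = 0.368). The count rests on small changes: 8 genes rose under median-ratio scaling, 14 in voom on recovered reads, and 1 or 2 without 1 library. The list median was 0.39 under median-ratio scaling. Counts and medians of this list are a description only, since its genes were listed after their rise was seen.

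Amino acid supply genes beyond the stress list rose as well. On 32 genes chosen after their values were seen, 9 rose and 1 fell, with a median of 0.34, and 1 rose without any 1 library. Given that choice, these counts are a description only. Pck2, the mitochondrial PEP carboxykinase, was at 8.61 and 6.77 RPKM on day 2, against 1.46 and 2.26 on day 1. It rose by 1.61 ± 0.23 (adjusted p = 0.00266) and held in all 4 fits. Aldh1l2, a mitochondrial folate enzyme, rose by 1.52 ± 0.34, and the glycine and glutamine carriers Slc6a9 and Slc1a5 by 1.23 ± 0.28 and 0.95 ± 0.24, calls that held in none. Jdp2, a repressor of the AP-1 family, was the gene that fell, by 1.15 ± 0.18 (adjusted p = 0.00424), with 19.4 and 17.7 RPKM on day 2, against 42.2 and 42.7 on day 1. Its call held in 3 fits and ended without day 2 replicate 2 (adjusted p = 0.0592).

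**Figure D2:**
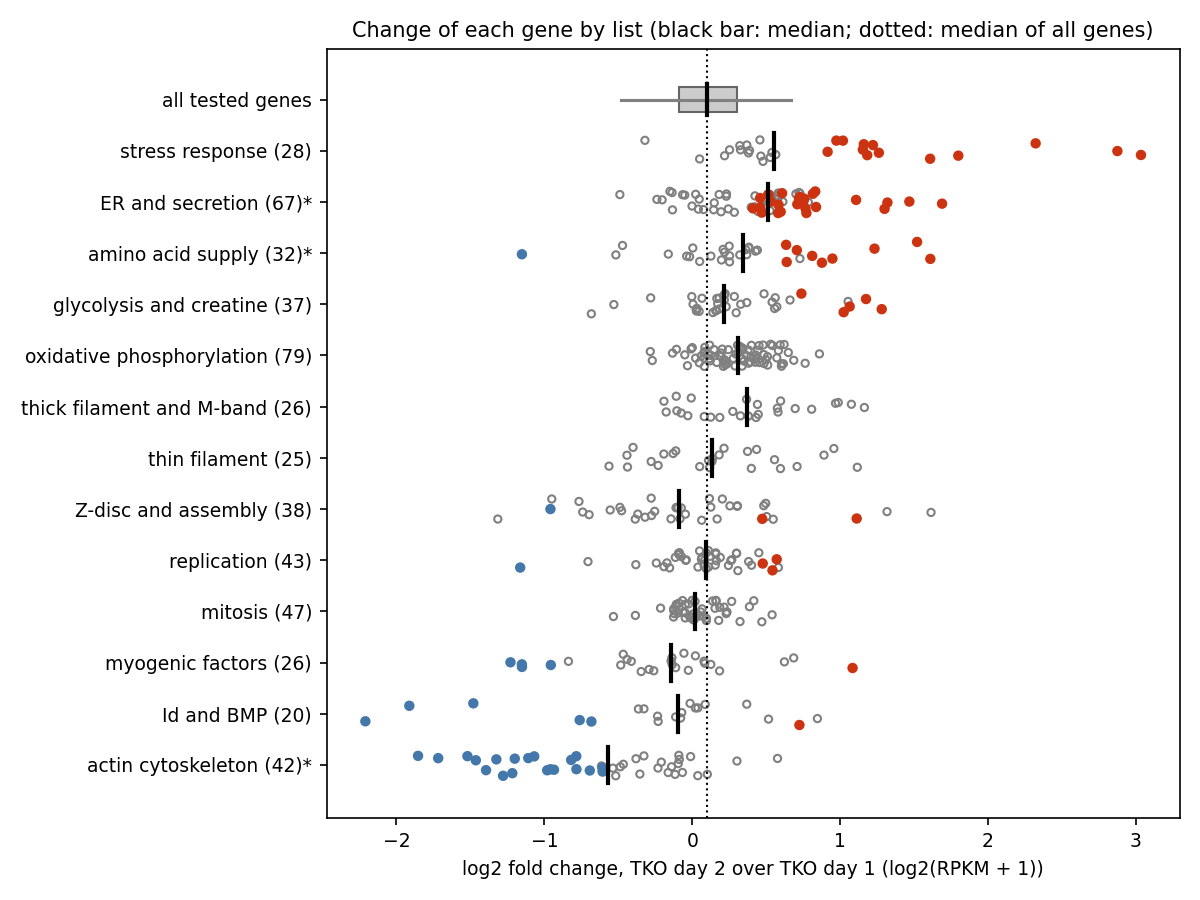
Log2 fold change of TKO day 2 over day 1 for each gene of 13 lists (red: rose, blue: fell, open: did not pass; number of genes in brackets; * list chosen after values were seen), below a box from the lower to the upper quartile of all tested genes. The stress response list has its median at 0.55 and the actin cytoskeleton list at -0.57, against 0.10 for all genes.

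Among the largest single rises outside these groups were genes of the cell surface, matrix and lipid synthesis. Cd24a, a surface glycoprotein, was at 16.1 and 29.5 RPKM on day 2, against 1.18 and 1.68 on day 1. It rose by 3.24 ± 0.31 (adjusted p = 0.000396), the largest rise of a named gene. Tgm2, the crosslinking transglutaminase, was at 7.93 and 6.97 RPKM, against 1.53 and 1.18 (1.84 ± 0.24, adjusted p = 0.00148). Fads2, a fatty acid desaturase, was at 21.6 and 24.7 RPKM on day 2, against 6.86 and 6.697 on day 1 (1.63 ± 0.25, adjusted p = 0.00317). Tac4, a tachykinin precursor, rose by 2.097 ± 0.26 at 5.41 and 5.67 RPKM, against 0.737 and 0.344. The calls of these 4 genes held in all 4 fits. Mfap4, a microfibril protein, was at 99.99 and 82.7 RPKM on day 2, against 25.96 and 20.1 on day 1 (1.95 ± 0.36, adjusted p = 0.00885). The secreted peroxidase Gpx3 was at 184 and 174 RPKM, against 54.2 and 53.8 (1.71 ± 0.37, adjusted p = 0.017), and the desaturase Scd1 at 77.7 and 86.4, against 29.4 and 21.8 (1.65 ± 0.38, adjusted p = 0.0211). R3hdml, Cmbl and the kinase Prkcq rose by 2.32 ± 0.45, 1.75 ± 0.34 and 1.66 ± 0.45. Of these 6 calls, only that of Cmbl held in any fit, in 1. On the cholesterol and fatty acid list 3 of 29 genes rose (10.3%, against 4.73% of all tested genes) and 0 fell. The rises included the sterol enzymes Tm7sf2 (1.32 ± 0.22) and Dhcr7 (0.81 ± 0.14), whose calls held in 2 fits each.

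The myogenic factors Myog and Myod1 fell, and Myf6 rose. Myog was at 1091 and 991 RPKM on day 2, against 2482 and 2396 on day 1, and fell by 1.23 ± 0.28 (adjusted p = 0.0196). Myod1 was at 369 and 377 RPKM on day 2, against 834 and 825 on day 1, and fell by 1.15 ± 0.22 (adjusted p = 0.00974). Myf6 (MRF4), which dominates in mature fibers, was at 37.8 and 28.3 RPKM, against 17.6 and 12.6, and rose by 1.08 ± 0.23 (adjusted p = 0.0156). The 2 days did not overlap for any of the 3 genes. By day, Myog was highest on day 1, with 719 and 1085 RPKM on day 0, while Myf6 was lowest on day 0, at 2.79 and 3.72. The calls of Myog and Myod1 held in none of the 4 fits and that of Myf6 in 1. Srf was at 21.5 and 21.5 RPKM on day 2, against 40.8 and 44.5 on day 1, fell by 0.96 ± 0.14 (adjusted p = 0.00317) and held in all 4. Of the 26 genes on the myogenic factor list 1 rose and 4 fell, with a median of -0.14. Pax7 (3.51 and 2.37 RPKM on day 2, 3.901 and 2.75 on day 1) and Myf5 (13.7 and 9.73, 8.66 and 5.300), which mark stem cells and myoblasts, did not pass (adjusted p = 0.863 and 0.398). Of 18 stem cell markers, only Cd82 passed and fell, by 0.77 ± 0.18, a call that held in none of the fits.

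**Figure D3:**
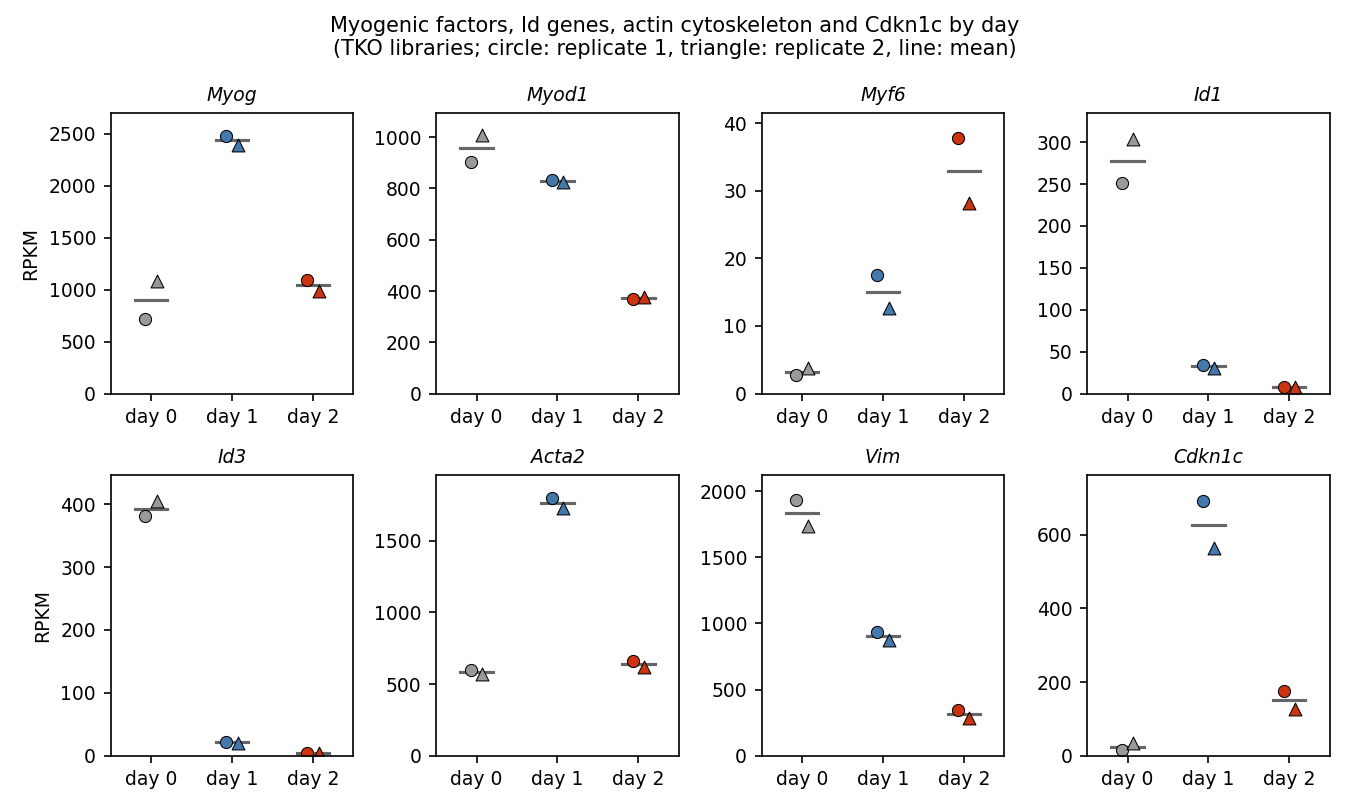
RPKM of myogenic factors, Id genes, cytoskeletal genes and Cdkn1c in the 6 TKO libraries by day (circle: replicate 1, triangle: replicate 2, line: mean of 2). Myog, Acta2 and Cdkn1c were highest on day 1, Id1, Id3 and Vim were lower with each day, and Myf6 was higher with each day.

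The inhibitors of these factors fell as well. Id3 was at 4.07 and 3.57 RPKM on day 2, against 22.3 and 20.3 on day 1, and fell by 2.21 ± 0.28 (adjusted p = 0.00148). Id1 was at 7.92 and 7.83 RPKM on day 2, against 34.6 and 30.4 on day 1, and fell by 1.91 ± 0.25 (adjusted p = 0.00148). Day 0 levels were 381 and 405 RPKM for Id3 and 252 and 304 for Id1, so that the larger part of the difference from day 0 was already there on day 1. Both calls held in all 4 fits. Id2, at 8.91 and 9.89 RPKM against 13.6 and 20.3, fell by 0.76 ± 0.20. The BMP signal transducer Smad1 fell by 0.68 ± 0.17, and Atoh8, a target of BMP signals in other cells, by 1.48 ± 0.29, with 1.35 and 1.16 RPKM on day 2, against 5.69 and 4.91 on day 1. The ligand Bmp2 rose, at 1.85 and 2.42 RPKM against 0.784 and 1.004 (0.72 ± 0.15, adjusted p = 0.0143). Of the 20 genes on the Id and BMP list 5 fell and 1 rose, and the median was -0.10. The calls of Id2, Smad1 and Atoh8 held in none of the fits and that of Bmp2 in 1.

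Genes of the actin cytoskeleton were also among the falls, counted here as a description only. On a list of 42 actin and SRF target genes, drawn up after values were seen, 20 fell and 0 rose, with a median of -0.57 and 4 genes above 0. The count was 20 under median-ratio scaling and 19 in voom, and 5 to 8 without 1 library. Acta2, smooth muscle alpha-actin, was at 662 and 619 RPKM on day 2, against 1802 and 1731 on day 1, and fell by 1.46 ± 0.19 (adjusted p = 0.00148). It was near its day 0 level of 601 and 568 RPKM. Vim, the intermediate filament of mesenchymal cells, was at 348 and 287 RPKM on day 2, against 937 and 879 on day 1, and fell by 1.52 ± 0.20 (adjusted p = 0.00148). Myl9, a light chain of nonmuscle and smooth muscle myosin, was at 22.2 and 23.04 RPKM, against 78.6 and 90.6, and fell by 1.85 ± 0.26 (adjusted p = 0.00213). Zyx (zyxin, of focal adhesions) was at 29.1 and 26.2 RPKM, against 56.1 and 54.9, and fell by 0.98 ± 0.12 (adjusted p = 0.00148). These 4 calls held in all 4 fits. The actin bundler Lima1 fell by 1.2 ± 0.19 (3 fits), the cytoplasmic actin Actg1 by 1.11 ± 0.18 and the LIM protein Fhl2 by 1.07 ± 0.18 (2 fits each), and the calponin Cnn2 by 1.72 ± 0.44 (none). Tagln, another smooth muscle marker, was at 16.6 and 17.7 RPKM on day 2, against 46.9 and 46.5 on day 1. The summed level of the smooth muscle and pericyte list, mostly Acta2, was 650 to 693 RPKM on day 2 and 1798 to 1870 on day 1, and the part of such cells in the falls was not tested.

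CArG elements, to which SRF binds, were in 1.72% of matched promoter windows of tested genes and 1.81% of all promoters. On the actin list they were in 8 of 37 matched genes (21.6%), and in 5 of the 17 matched genes that fell (29.4%). The 5 are shown on the strand of the gene with the element in capitals, as the genes that fell with a letter match before the start. The list was written to hold SRF targets, after values were seen, so its share above that of all genes is a description only.
Myl9 (chr2:156775263-156775352, + strand): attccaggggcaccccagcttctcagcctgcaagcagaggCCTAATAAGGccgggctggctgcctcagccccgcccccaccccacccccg
Cnn2 (chr10:79988504-79988593, + strand): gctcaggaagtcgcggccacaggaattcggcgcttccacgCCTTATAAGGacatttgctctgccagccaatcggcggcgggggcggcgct
Lima1 (chr15:99820150-99820236, - strand): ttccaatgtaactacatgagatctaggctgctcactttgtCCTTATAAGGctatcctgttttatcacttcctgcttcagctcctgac
Actg1 (chr11:120348536-120348625, - strand): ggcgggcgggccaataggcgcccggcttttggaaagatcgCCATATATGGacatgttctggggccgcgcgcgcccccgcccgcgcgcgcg
Fhl2 (chr1:43163962-43164032, - strand): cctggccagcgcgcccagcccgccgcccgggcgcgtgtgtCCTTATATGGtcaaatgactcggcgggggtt
In the stretches shown, Cnn2 and Lima1 shared the letters CCTTATAAGG, while Myl9, Actg1 and Fhl2 each had another form. Fhl2 had a further match before another start, CCAAAAAAGG, which is not shown. Of the matched genes that rose, 6 of 454 (1.32%) held a CArG element. TGATGNAA was in 0 of the 37 actin windows. The motif counts of the called sarcomere genes, of the called mitosis and replication genes and of the genes that fell as a whole are void, because under 80% of each set had a window. For the genes that rose, of which 80.8% had one, the E-box CACCTG was in 27.5% against 20.1% of tested genes, and CCAAT in 54.2% against 43.7%. The E-box CAGCTG was in 19.4% against 18.1% and the MEF2 motif in 2.42% against 2.25%. These shares are descriptions on both strands, with no test.

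Other large falls were in genes of several functions. Olfml2b, a secreted olfactomedin-like protein, was at 8.86 and 5.92 RPKM on day 2, against 49.5 and 53.2 on day 1. It fell by 2.66 ± 0.38 (adjusted p = 0.00243), the largest fall of a named gene, and held in all 4 fits. Ptgis, the prostacyclin synthase, was at 10.7 and 7.67 RPKM, against 54.8 and 39.2, and fell by 2.24 ± 0.38 (adjusted p = 0.00579, 2 fits). Sct, which encodes secretin, was at 0.412 and 0.4802 RPKM on day 2, against 6.72 and 4.55 on day 1 (-2.18, adjusted p = 0.00334, 3 fits). The hydroxylase Dbh and the exocyst-like gene Exoc3l fell by 1.76 ± 0.22 and 1.58 ± 0.24 in all 4 fits. The receptor Adgrg1, Ralgps2 and the Rab exchange factor Rab3il1 fell by 1.89 ± 0.51, 1.74 ± 0.35 and 1.74 ± 0.38, of which only the call of Ralgps2 held in any fit, in 1.

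Proliferation genes were low on both days. Mki67, the proliferation marker, was at 1.34 and 0.461 RPKM on day 2 and 1.04 and 0.916 on day 1, against 55.00 and 45.1 on day 0, and the days 2 and 1 overlapped. Of 47 mitosis genes 0 passed in limma or voom (2 higher and 0 lower at an unadjusted p under 0.05 in limma). Their median was 0.02, or -0.05 under median-ratio scaling. Of 43 replication genes 3 rose (6.98%) and 1 fell (2.33%), against 4.73% and 1.89% of all tested genes. Rrm2, of the ribonucleotide reductase, fell by 1.16 ± 0.22 (adjusted p = 0.00819), while Gins4, Rfc2 and Rpa2 rose by 0.57 ± 0.16, 0.54 ± 0.14 and 0.48 ± 0.13. None of these 4 calls held in any fit, and the 3 rises did not pass under median-ratio scaling. On the cycle exit list 6 of 28 genes fell and 2 rose. Cdkn1c (p57), an imprinted inhibitor of cyclin-dependent kinases, was at 177 and 127 RPKM on day 2, against 691 and 564 on day 1, and fell by 2.05 ± 0.40 (adjusted p = 0.0107). It had been at 14.99 and 33.99 RPKM on day 0. The stress sensors Gadd45g and Gadd45b fell by 1.34 ± 0.22 (adjusted p = 0.00424, 3 fits) and 1.21 ± 0.26, and E2f8 fell by 1.001 ± 0.23. Ccnd2 and the inhibitor Cdkn2d rose by 1.16 ± 0.30 and 0.88 ± 0.19. Except for Gadd45g, these calls, that of Cdkn1c included, held in none of the fits.

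Sarcomere genes were already high on day 1, and few passed the test of day 2 against day 1. Without overlap, 17 of 26 thick filament genes were higher on day 2 and 2 lower, and 13 of 25 thin filament genes higher and 7 lower. Over all genes these shares were 47.2% higher and 22.9% lower. Of the 26 thick filament and 25 thin filament genes 0 passed in limma or voom (at an unadjusted p under 0.05 in limma, 6 higher and 0 lower in the thick and 5 higher and 0 lower in the thin filament), and medians were 0.37 and 0.13. With either WT day 2 library left out of the fit, 2 genes of each list rose. Myh3, embryonic myosin, was at 2897 and 2764 RPKM on day 2, against 3219 and 3178 on day 1 and 384 and 514 on day 0 (-0.18, adjusted p = 0.821). Myh8, perinatal myosin, was at 1117 and 1093 RPKM on day 2 and 537 and 511 on day 1, without overlap, at 1.08 ± 0.40 (adjusted p = 0.133). Myh1, an adult fast myosin, was at 653 and 899 RPKM on day 2 and 499 and 638 on day 1. The adult myosins Myh2 (6.07 and 34.2 RPKM on day 2, 3.92 and 21.7 on day 1), Myh4 (11.5 and 33.1 on day 2, 13.4 and 19.3 on day 1) and Myh7 (7.26 and 21.1 on day 2, 9.11 and 22.5 on day 1) differed more between replicates than between days, with replicate 2 the higher each time. Acta1 was at 8020.3 and 8195 RPKM on day 2 and 10071 and 9593 on day 1 (-0.28 ± 0.29, adjusted p = 0.649), and Actc1 at 4742 and 4619 on day 2 and 7112 and 6721 on day 1 (-0.56 ± 0.26, adjusted p = 0.234). Tnnc1, the slow and cardiac troponin C, was at 3379.6 and 3733 RPKM on day 2 and 1933 and 1897 on day 1, and Tnni2, the fast troponin I, at 855 and 869 on day 2 and 421 and 375 on day 1 (adjusted p = 0.0705 and 0.0846). Ckm, the muscle creatine kinase, was at 779.7 and 946 RPKM on day 2 and 839 and 846 on day 1, and the days overlapped. On the Z-disc and assembly list 2 of 38 genes rose (5.26%, close to the 4.73% of all tested genes) and 1 fell (2.63%). Cmya5, a large M-band and Z-disc partner, rose by 1.11 ± 0.23, and the actin-binding Pdlim7 fell by 0.96 ± 0.22. These calls held in none of the fits.

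**Figure D4:**
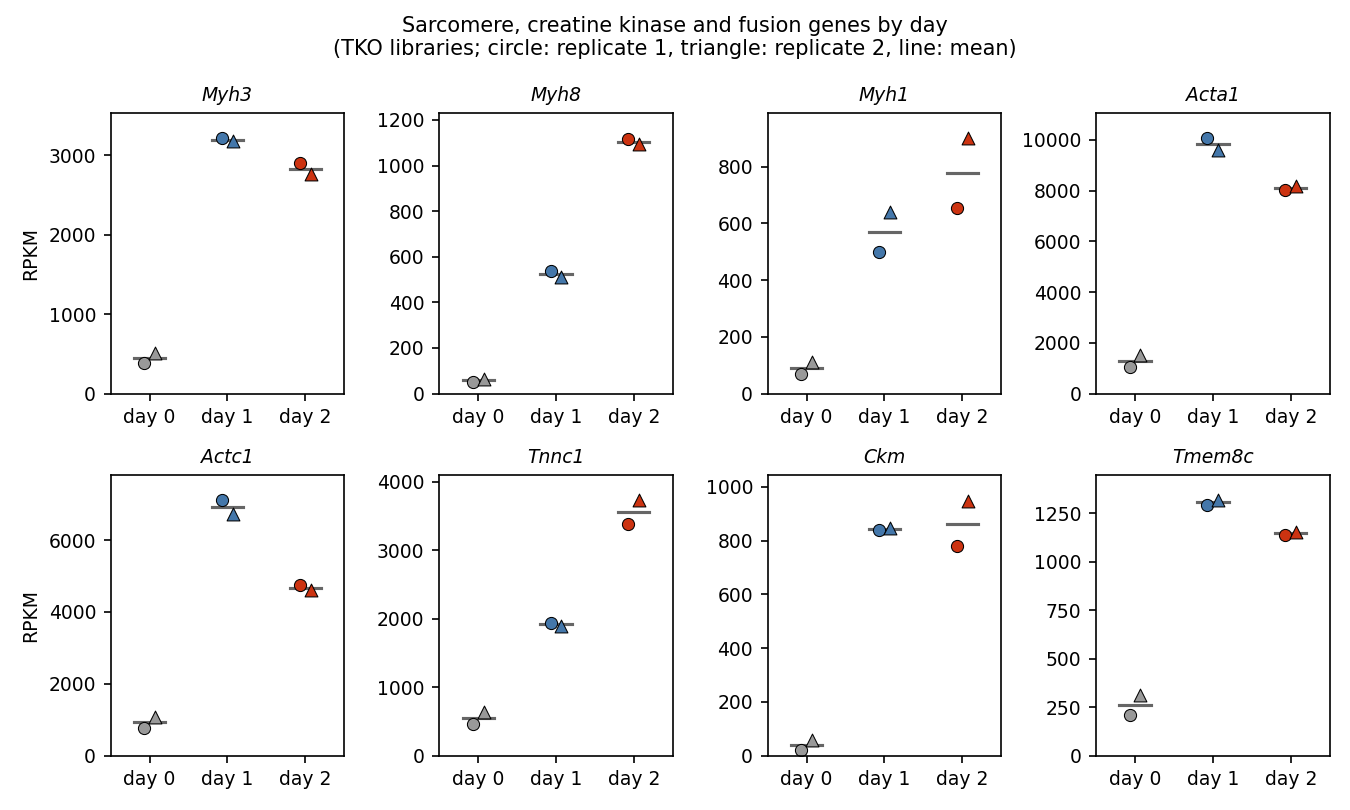
RPKM of sarcomere genes, Ckm and the fusion gene Tmem8c (Mymk) in the 6 TKO libraries by day (circle: replicate 1, triangle: replicate 2, line: mean of 2). All 8 genes were far above their day 0 levels by day 1, and none of them passed the test of day 2 against day 1.

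Fusion genes were also past their start. Myomaker, listed as Tmem8c, was at 1139 and 1151 RPKM on day 2 and 1292 and 1320.05 on day 1, against 212 and 315 on day 0, and myomerger, listed as Gm7325, at 167 and 169 on day 2 and 216 and 219 on day 1 (adjusted p = 0.658 and 0.68). Of 27 fusion genes 4 fell and 1 rose, with a median of -0.19. Jam3, a junctional adhesion molecule, was at 65.2 and 57.97 RPKM on day 2, against 165 and 154 on day 1. It fell by 1.36 ± 0.20 (adjusted p = 0.00266) and held in all 4 fits. The integrin Itga3 and the membrane repair proteins Myof and Dysf fell by 0.87 ± 0.20, 0.68 ± 0.18 and 0.63 ± 0.16, and the integrin Itga9 rose by 0.61 ± 0.16, calls that held in none.

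Among calcium handling, excitability and energy genes the share of calls differed by list. Camk2b, a calcium-activated kinase, was at 9.78 and 9.16 RPKM on day 2, against 3.14 and 2.55 on day 1 (1.45 ± 0.24, adjusted p = 0.00515, 1 fit), and the calcium channel subunit Cacnb1 rose by 0.58 ± 0.16. These were 2 of 35 coupling genes (5.71%), close to the 4.73% of all tested genes, and under median-ratio scaling 1 rose and 2 fell. The potassium channels Kcna7 and Kcnj11 rose by 1.29 ± 0.26 and 0.99 ± 0.17, and Popdc3 fell by 0.72 ± 0.16. Of the 23 excitability genes 8.7% rose, against 4.73% of all tested genes. Slc2a4 (GLUT4), the insulin-responsive glucose carrier, was at 45.2 and 42.2 RPKM on day 2, against 19.1 and 18.4 on day 1. It rose by 1.17 ± 0.18 (adjusted p = 0.00353) and held in all 4 fits. Mitochondrial creatine kinase Ckmt2 (1.28 ± 0.25), hexokinase Hk2 (1.06 ± 0.24) and the lactate dehydrogenase Ldhb (1.02 ± 0.26) rose too, in none of the fits. In all, 5 of 37 glycolysis and creatine genes rose (13.5%, against 4.73% of all tested genes). Of 79 oxidative phosphorylation genes 0 passed in limma or voom (3 higher and 0 lower at an unadjusted p under 0.05 in limma), but 72 were above 0, with a median of 0.31. That median was 0.19 under median-ratio scaling, 0.064 with the length trend removed and 0.187 without day 1 replicate 2. Ribosomal protein genes had a median of 0.11, or -0.01 under median-ratio scaling, and 0 of 79 passed in either test (0 higher and 1 lower at an unadjusted p under 0.05 in limma). At the neuromuscular junction Etv5 rose by 1.28 ± 0.28 and Ptprs by 0.98 ± 0.19, 2 of 17 (11.8%, against 4.73% of all tested genes). Of these calls, that of Kcnj11 held in 1 fit, and those of Cacnb1, Kcna7, Popdc3, Etv5 and Ptprs in none.

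Cytosolic chaperones, splicing factors and antigen presentation genes fell in part. Of 26 heat shock genes 3 fell and 0 rose: Hspb1 by 1.02 ± 0.26 (374 and 338 RPKM on day 2, 775 and 674 on day 1), Hsp90aa1 by 1.01 ± 0.18 (143 and 148, 307 and 282) and Hspa8 by 0.59 ± 0.15 (1347 and 1484, 2209 and 2043). Of 25 splicing regulators 4 fell and 0 rose: Hnrnph1 by 0.87 ± 0.21, Srsf2 by 0.77 ± 0.16, Rbm38 by 0.73 ± 0.18 and Hnrnpa1 by 0.57 ± 0.15. Of 22 antigen presentation genes 3 fell and 1 rose. B2m fell by 0.91 ± 0.21, the immunoproteasome gene Psmb8 by 1.11 ± 0.22, and H2-D1 by 1.35 ± 0.24, an uncertain value as near-identical class I genes share reads. Tapbp rose by 1.02 ± 0.23. Of these 11 calls, those of H2-D1 and Tapbp held in 1 fit and the rest in none. Of 32 interferon and 26 chemokine and cytokine genes 0 passed in limma or voom (at an unadjusted p under 0.05 in limma, 3 higher and 1 lower of the first list and 1 higher and 0 lower of the second).

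The same step was measured in WT and QKO cells. The 2 WT day 2 libraries stood apart, and replicate 2 resembled the TKO day 2 libraries. In TKO the day 2 libraries had 81.1 and 49.7 RPKM of Grb10 and 331 and 360.4 of Hspb8. WT day 2 replicate 2 had Grb10 at 94.4 RPKM and Hspb8 at 339, while WT day 2 replicate 1 had 1.44 and 4.44 and the WT day 1 libraries at most 0.821 and 2.11. Across genes the library labelled WT day 2 replicate 2 correlated with the TKO day 2 libraries at r = 0.99 and 0.993. Its correlation with WT day 2 replicate 1 was 0.976. WT day 2 replicate 1 correlated with the TKO day 2 libraries at 0.978 and 0.980. With the QKO day 2 libraries, WT day 2 replicate 1 was at 0.970 and 0.973 and replicate 2 at 0.983 and 0.985. Which of the 2 WT libraries is the odd one was not tested. A mixed-up library was not tested for, and WT values are given below with and without WT day 2 replicate 2.

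In WT 1837 genes (15.4%) were called, or 606 without WT day 2 replicate 2, and in QKO 362 (3.04%). Of the 787 genes called in TKO, 576 were called in WT (73.2% of the TKO and 31.4% of the WT calls), or 325 without that library (41.3% and 53.6%). In QKO 231 were called (29.4% and 63.8%), and all of these were in the same direction. The difference between the change in TKO and that in WT passed for 0 of 11890 genes (0.0%) in limma, with 488 (4.1%) at an unadjusted p under 0.05. With either WT day 2 library left out, 1 was left in that group, and how many genes passed depended on which one. The difference between the change in TKO and that in QKO passed for 0 (0.0%), with 336 (2.83%) at an unadjusted p under 0.05 in limma. In voom on recovered reads both counts were also 0 (0.0%), with 438 (3.69%) and 236 (1.99%). The count for TKO day 2 against day 1 was 932 without WT day 2 replicate 1 and 936 without WT day 2 replicate 2, as WT libraries enter its estimate of spread.

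The stress response list had a median of 0.55 in TKO, 0.08 in WT (0.09 without WT day 2 replicate 2) and 0.09 in QKO. At an unadjusted p under 0.05 in limma, 10 of the 28 genes differed from WT, against 4.1% of all tested genes. From QKO 11 differed, against 2.83%, and after adjustment 0 differed from either. Both differences use the same TKO libraries, so they are not independent. Ddit3 was at 11.98 and 14.1 RPKM on day 2, against 9.75 and 11.3 on day 1, in WT, and at 14.1 and 8.42, against 7.603 and 7.58, in QKO. Its change was 1.61 in TKO, 0.28 in WT (0.17 without WT day 2 replicate 2) and 0.48 in QKO (adjusted p of the differences = 0.582 and 1). Trib3 was at 5.23 and 7.46 RPKM on day 2, against 1.202 and 1.34 on day 1, in WT, and at 6.98 and 2.26, against 1.57 and 1.64, in QKO, a log2 change of 3.03 in TKO, 1.68 in WT (1.46 without that library) and 0.97 in QKO. Gdf15 changed by 1.695 in TKO, and its log2 change was 0.76 in WT (0.77 without that library) and 0.01 in QKO (adjusted p = 0.832 and 0.324). Fgf21, in contrast, was at 2.87 in TKO, 2.67 in WT (1.72 without that library) and 1.44 in QKO. For the ER list, the medians were 0.52 in TKO, -0.03 in WT (0.04 without that library) and -0.13 in QKO, a description only, since its genes were listed after their rise in TKO was seen.

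**Figure D5:**
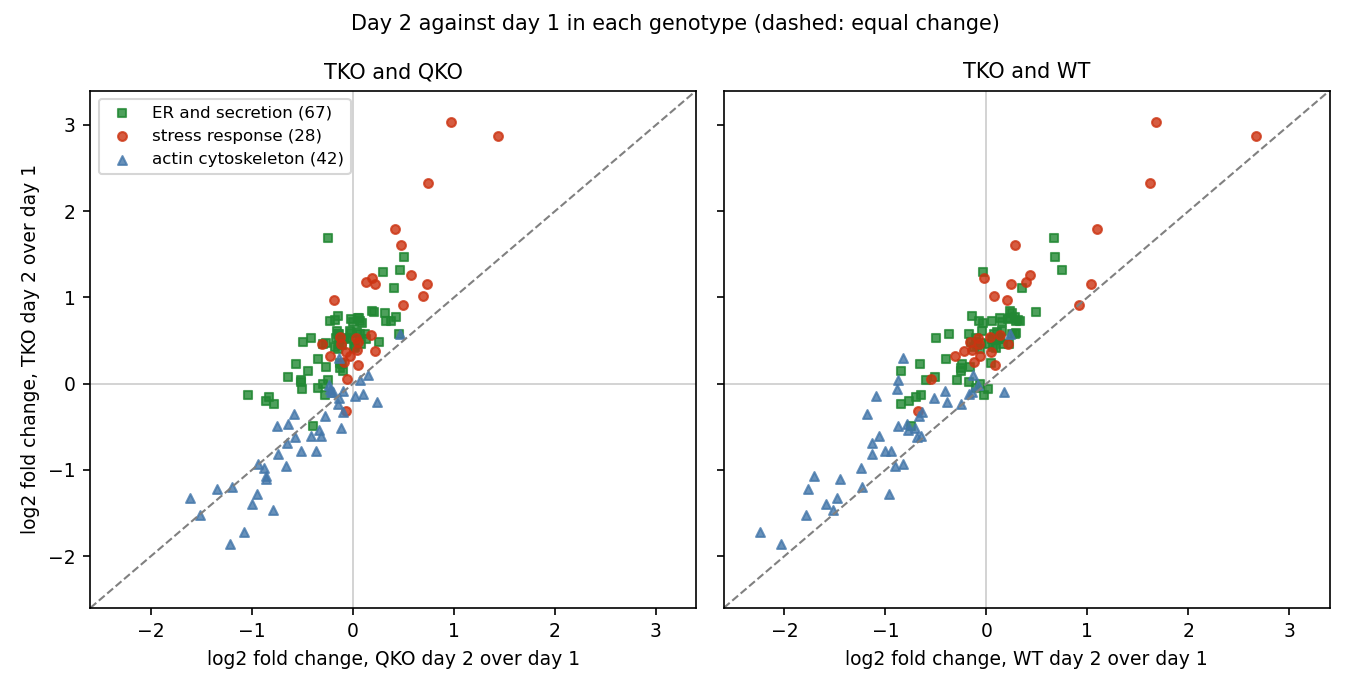
Log2 fold change of day 2 over day 1 in TKO (y axis) against QKO (left, x axis) and WT (right, x axis), per gene. Shown are 67 ER and secretion genes (green squares), 28 stress response genes (red circles) and 42 actin cytoskeleton genes (blue triangles). The ER and actin lists were chosen after values were seen. The dashed line marks equal change. Ddit3, of the stress response list, was at 1.61 in TKO, 0.48 in QKO and 0.28 in WT.

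Among the falls, the actin list had a median of -0.57 in TKO, -0.88 in WT with or without WT day 2 replicate 2 and -0.47 in QKO. Of its 42 genes 20 fell in TKO, 27 in WT (17 without that library) and 12 in QKO. Id3 changed by -2.21 in TKO, -3.43 in WT (-3.19 without that library) and -3.38 in QKO, and day 1 levels were 22.3 and 20.3 RPKM in TKO, 34.1 and 43.2 in WT and 49.5 and 49.6 in QKO. Cdkn1c was at 54.1 and 116 RPKM on day 2, against 45.1 and 60.8 on day 1, in WT, and its change of -2.05 in TKO stood beside 0.59 in WT and -1.71 in QKO (adjusted p of the differences = 0.391 and 1). In WT it was 0.05 without WT day 2 replicate 2 (adjusted p of the difference = 0.949) and 1.13 without WT day 2 replicate 1 (adjusted p = 0.0103). Myh8 was at 725 and 1091 RPKM on day 2, against 179 and 111 on day 1, in WT, a log2 change of 2.65 (2.35 without WT day 2 replicate 2) beside 1.08 in TKO and 0.91 in QKO (adjusted p = 0.986 and 1). Thick filament medians were 0.37 in TKO, 0.57 in WT and 0.29 in QKO, and 7 of the 26 genes rose in WT (3 without that library) and 0 in QKO.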

How the data were processed

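RNA was extracted with TRIZOL and made into libraries by Illumina protocols, per the labels, and the submitters' processing notes name HISAT2 2.0.5 and the build GRCm38.p5. The values are the RPKM the authors deposited, in 1 table of 22013 rows and 18 libraries, from which 1401 rows of repeated symbols were left out. RPKM step by whole reads, which gave the depth and read numbers. The step of WT day 1 replicate 1 was doubled, as nearly all of its read numbers were even before. Whole reads came out for 16542 of 16548 rows (tolerance 0.02 of a read), and in 0.167% of 3000 rows moved at random.

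Values were fitted as log2(RPKM + 1), with a pseudocount of 1, by limma 3.58.1 in R 4.3.3, with the 9 groups as coefficients (9 residual degrees of freedom) and variances moderated with a robust mean trend. P-values were adjusted by Benjamini-Hochberg over all 11890 genes. The 200 genes changed in simulated data were drawn from the more abundant ones, with independent noise in each library. Of these changes, 72% of the 2-fold and 92% of the 4-fold ones were called, with 8 false calls. Recovery for low genes was not measured. The change in TKO was set against those in WT and QKO as a difference of changes.

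The libraries compared and the lists were chosen with earlier results of these data known. Lists were 42 written from gene functions and 3, for the ER, amino acid supply and actin, written after values were seen. The text names among genes with no overlap and a mean RPKM of at least 5, the 15 strongest calls each way at most, up to 4 called genes a list and direction or 3 abundant ones as values, and the targeted and main myogenic genes. Ppp1r15a, Xbp1, the ER chaperones, the examples of the 3 later lists and other genes named past this rule were chosen with their values known. Alternatives were pseudocounts of 0.1 and 0.5, other filters, scalings and fits, a replicate block, voom on recovered reads and leaving out each library. After the data were seen, 3 kinds were added, with the length trend removed, all rows of repeated symbols used, or a WT day 2 library left out of the TKO and QKO comparisons. Promoter sequences are from RefSeq (GRCm38.p6), matched to 9224 genes by symbol and 402 by synonym. Splicing was not analysed here. Python 3.11.15, pandas 2.3.3 and Matplotlib 3.10.9 were used for tables and figures.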

Additional observations from a re-analysis of the deposited data

How the results depend on the processing

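For TKO day 2 against day 1, the count of 787 genes (562 up, 225 down) became 524 in voom on recovered reads (348 up), 3923 in a fit of only the 4 libraries (2744 up, 1179 down), 3734 with only the 6 TKO libraries (2653 and 1081) and 205 with at least a 2-fold change (123 and 82). It was 76 to 112 with 1 of the 4 libraries left out (45 to 72 up, 31 to 46 down), where the fits hold fewer samples, and up to 936 (663 up, 273 down) with a WT day 2 library left out. Rises were 358 with a mean RPKM of at least 5, 286 after quantile normalization and 335 after median-ratio scaling, and falls were 362 after median-ratio scaling and 538 with the length trend removed. The difference of changes from WT was called for 0 genes, but for 3 without the filter (1 higher, 2 lower) and, over the fits that left out a library, for 0 to 162 (0 to 45 higher, 0 to 117 lower), with 162 without WT day 2 replicate 1. That from QKO was called for 0 genes, for 2 without the filter (1 and 1), and for 0 or 1 with a library left out, higher or lower.

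Of 104 named genes that passed, none reversed under any alternative. Median-ratio scaling kept 95 of the calls, voom 85, quantile normalization 87, fits with 1 of the 4 libraries left out 27 to 35, and fits without a WT day 2 library all 104. Genes that had not passed changed sign as follows. Hspa5 was at -0.048 under median-ratio scaling and -0.031 with the length trend removed. Ckm was at -0.10 under median-ratio scaling and -0.12 with the length trend removed. Acta1 was at 0.00 after quantile normalization. With 1 library left out, log2 changes ranged over -0.11 to 0.167 for Ckm, -0.345 to 0.0743 for Pax7, -0.578 to 1.74 for Myh2, -0.451 to 1 for Myh4, -0.901 to 0.518 for Myh7 and -0.437 to 0.241 for Mki67.

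With the replicate number as a block, 540 genes rose and 226 fell, or 766 in all, and 101 of the 104 named calls were kept. The block ended those of Cacnb1, Gins4 and Hnrnpa1. Same-numbered libraries of the 2 days deviated together (r = 0.437 across genes), as did those of TKO day 0 with day 1 (0.198) and day 2 (0.305), and of day 2 with day 1 in WT (0.129) and QKO (0.55), but with 2 pairs and no label that ties a number to a culture, the numbers do not establish pairing. Depth, at 1 read for 0.0223 to 0.0288 RPKM on a 1 kb transcript, limits the low genes.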
